A study of Rattus norvegicus with 8 samples.

Results

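Transcripts of 100 genes with symbols of subunits of the oxidative phosphorylation complexes were followed through the induction of rat germ cell-like cells. The members were chosen by symbol from the 22228 named genes of the table. They comprise 87 nuclear genes, with the Nduf symbols of NADH dehydrogenase (complex I, without the Ndufaf assembly factors), the Sdh symbols of succinate dehydrogenase (complex II), the Uqcr symbols of the cytochrome bc1 complex (complex III), Cox4 to Cox8 of cytochrome c oxidase (complex IV) and the Atp5 symbols of ATP synthase (complex V). The other 13 are the protein-coding genes of the mitochondrial genome. Complex I had 39 nuclear and 7 mitochondrial members, complex II 4 nuclear members, complex III 8 nuclear members and 1 mitochondrial member, complex IV 18 and 3, and complex V 18 and 2. All 100 were in the table, and 96 passed the filter for testing, which asked for 1 TPM or more in 2 or more of the 8 libraries. TPM counts transcripts relative to a fixed total per library and is corrected for transcript length.

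Complexes I to IV pass electrons from NADH and succinate to oxygen and, except for complex II, pump protons across the inner mitochondrial membrane. ATP synthase uses the returning protons to make ATP. Every complex except complex II is built from subunits of both genomes. The nuclear ones are imported from the cytosol, and the mitochondrial ones are transcribed as long polycistronic RNAs that are cut into shorter messages inside the organelle. Cells leaving naive pluripotency are known in the mouse to rely less on respiration and more on glycolysis, and germ cell specification is known there to shift metabolism again.

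RNA sequencing covered 4 groups of the rat strain Crlj:WI, labelled wild type, with 2 libraries each. ESC were embryonic stem cells grown on mouse fibroblast feeders with the MEK inhibitor PD0325901 (1 µM), the GSK3 inhibitor CHIR99021 (3 µM) and rat LIF (1000 U/ml). EpiLC were epiblast-like aggregates made from them during 60 h with activin A (20 ng/ml), bFGF (12 ng/ml) and 1% KSR. PGCLC_d3 were primordial germ cell-like cells after 3 days with BMP4 (500 ng/ml), SCF (100 ng/ml), EGF (50 ng/ml) and LIF (1000 U/ml), and PGCLC_d3ag3 were such cells 3 days after 5000 of them had been joined with 50000 gonadal somatic cells from female E15.5 embryos, depleted of c-KIT-positive germ cells, in medium with 5% KSR. Cells of PGCLC_d3 and PGCLC_d3ag3 were sorted by fluorescence of tdTomato expressed from Nanos3, so they carry a reporter allele that the genotype label does not list. ESC and EpiLC are not described as sorted. Whether the 2 libraries of a group stem from separate cultures is not stated in the labels, and p-values may therefore reflect only a technical spread.

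Relative to ESC replicate 1, the depth estimated from the smallest steps between values was 1.37 for ESC replicate 2, 1.14 to 1.497 for EpiLC and PGCLC_d3, and 2.17 and 2.38 for PGCLC_d3ag3; absolute read totals are not given. Germ cell markers, 6 genes, summed to 99 and 116 TPM in ESC, 32.9 and 33.4 in EpiLC, 1424 and 1431 in PGCLC_d3 and 929.9 and 930.1 in PGCLC_d3ag3. Naive markers summed to 2064 and 2049 TPM in ESC and at most 199.8 in any other library, and the epiblast list to 3478 and 3639 TPM in EpiLC and at most 1291 elsewhere. Dnmt3b gave 2666 and 2887 TPM of the EpiLC sums. Dnmt3l alone of the epiblast list was lower in EpiLC than in ESC, with 331 and 255 TPM against 1121 and 1039. A gonadal somatic list of 10 genes summed to 6.47 and 6.87 TPM in ESC and 18.4 and 17.5 in EpiLC. It summed to 10.2 and 8.67 TPM in PGCLC_d3 and 14.6 and 19.8 in PGCLC_d3ag3. The PGCLC_d3ag3 sum was thus near that of EpiLC, though other genes made it up. Of the 10, 7 were higher in both PGCLC_d3ag3 libraries than in either PGCLC_d3 library and 0 lower. The share of all genes separated in this way was not counted, here or for the lists below. In the limma test described below, 25.7% of all genes tested were called higher and 44.8% lower in PGCLC_d3ag3 versus PGCLC_d3. Gata4 had 4.70 and 5.12 TPM in PGCLC_d3ag3 and 2.66 and 2.55 in PGCLC_d3. Amhr2 had 3.74 and 4.26 against 0.43 and 0.40, and Wt1 1.28 and 1.17 against 0.04 and 0.06. In EpiLC, Gata4 had 0.23 and 0.11 TPM, Amhr2 8.96 and 7.84, and Wt1 0.29 and 0.33. Nr5a1 had 8.13 and 8.23 TPM in EpiLC, 0.05 and 0.09 in PGCLC_d3 and 0.87 and 0.75 in PGCLC_d3ag3. Nr2f2 and Tcf21 stayed below 0.1 TPM in PGCLC_d3ag3 and PGCLC_d3. A fibroblast and feeder list of 10 genes summed to 662 and 895 TPM in ESC, 257 and 286 in EpiLC, 72.0 and 74.0 in PGCLC_d3 and 58.7 and 67.0 in PGCLC_d3ag3. Fn1 alone gave 630 and 869 TPM of the ESC sums, where Col1a1 had 12.2 and 8.85 TPM, Col3a1 10.4 and 8.92 and Thy1 0. Of the 10, 4 were higher in both PGCLC_d3ag3 libraries than in PGCLC_d3 and 3 lower; Postn had 6.70 and 8.45 TPM in PGCLC_d3ag3 and 0.13 and 0.31 in PGCLC_d3, Col5a1 12.0 and 15.2 against 6.24 and 6.18, and Lum was at 0 in all 4 libraries. Immediate early and dissociation genes, 9 in all, summed to 328 and 232 TPM in ESC, 433 and 369 in EpiLC, 505 and 547 in PGCLC_d3 and 789 and 816 in PGCLC_d3ag3, so their sum was highest in the group where most nuclear members were highest, although 4 of the 9 genes were higher and 5 lower there than in PGCLC_d3. The part of these lists in the results below was not tested. In bulk RNA, fewer cells of a type and less RNA per cell cannot be told apart.

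The genomes differed in the order of the groups. The 87 nuclear members together held 4.27% and 4.20% of the TPM of all named genes in ESC, 3.63% and 3.54% in EpiLC, 3.67% and 3.74% in PGCLC_d3 and 5.00% and 4.71% in PGCLC_d3ag3. The 13 mitochondrial transcripts held 3.00% and 3.29% in ESC, 3.96% and 4.18% in EpiLC, 5.42% and 4.88% in PGCLC_d3 and 4.25% and 4.54% in PGCLC_d3ag3. The nuclear share was thus largest in PGCLC_d3ag3 and the mitochondrial share in PGCLC_d3, with no overlap with the libraries of any other group in either case. The ratio of the mitochondrial to the nuclear sum was 0.703 and 0.784 in ESC, 1.09 and 1.18 in EpiLC, 1.48 and 1.302 in PGCLC_d3 and 0.850 and 0.965 in PGCLC_d3ag3. These sums were not tested, since an exact permutation test of 2 against 2 libraries cannot go below p = 0.333.

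**Figure D1:**
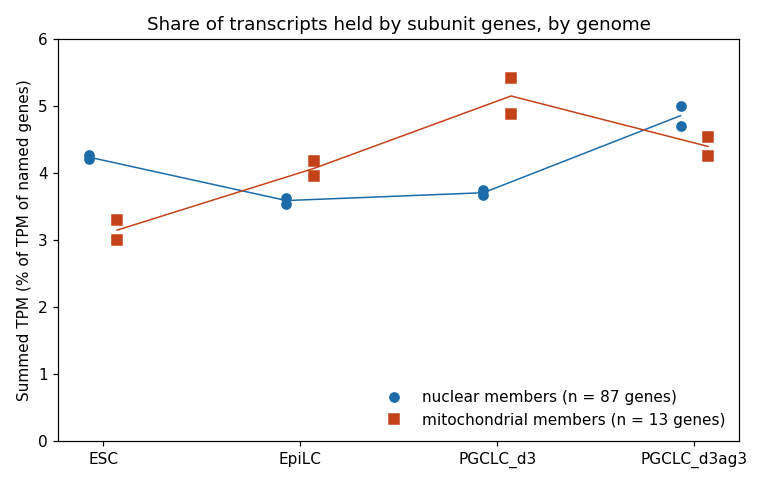
Summed TPM of the members as a percent of the TPM of all named genes (y axis) in each library of the 4 groups (x axis), by genome. The nuclear sum was 4.71% and 5.00% in PGCLC_d3ag3 and at most 4.27% elsewhere, and the mitochondrial sum was 4.88% and 5.42% in PGCLC_d3 and at most 4.54% elsewhere.

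Changes between groups were tested with limma on log2(TPM+1) over 13571 genes, with Benjamini-Hochberg adjustment, and a member is called higher or lower at an adjusted p under 0.05. Changes on this scale understate those of low genes. The 4 comparisons share groups with one another and are not independent. Each gene has 1 estimate of spread for all 4 groups, and so the same SE in every comparison. In EpiLC versus ESC, 56 of the 83 nuclear members tested were lower and 13 higher, where 31.8% of all genes tested were lower and 35.4% higher. Their median log2 change was -0.25, against 0.04 over all genes. In PGCLC_d3 versus EpiLC, 42 nuclear members were higher and 20 lower, against a background of 47.3% higher and 27.6% lower, and their median of 0.17 was close to the 0.21 of all genes. On the deposited values the nuclear members as a whole were therefore near the background at this step.

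In PGCLC_d3ag3 versus PGCLC_d3, 64 nuclear members were higher and 5 lower, where 25.7% of all genes were higher and 44.8% lower. The median was 0.41 for the nuclear members and -0.18 for all genes. Against ESC, 52 were higher and 14 lower in PGCLC_d3ag3, with 42.5% and 34.8% of all genes called in these directions, and the medians were 0.30 and 0.09. By group mean, 53 of the 83 nuclear members (63.9%) were highest in PGCLC_d3ag3, as were 24.4% of all genes tested, and 44 (53.0%) were lowest in EpiLC, as were 26.1% of all genes. Quantile normalization moved the median of all genes to 0.01 in PGCLC_d3 versus EpiLC and to 0.00 in PGCLC_d3ag3 versus PGCLC_d3, and moved the share of all called genes that were higher to 50.8% from 63.2% and to 49.9% from 36.4%. Under it the nuclear members were 48 higher and 19 lower in PGCLC_d3 versus EpiLC, and 57 higher and 7 lower in PGCLC_d3ag3 versus PGCLC_d3. Of all 13571 genes, 5114 were then higher and 4959 lower at the first of these steps, and 4700 and 4719 at the second. Nearness to the background in PGCLC_d3 versus EpiLC thus depended on the scaling.

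The mitochondrial transcripts followed another course. Of the 13, 11 were higher and 0 lower in EpiLC versus ESC, with a median log2 change of 0.27. In PGCLC_d3 versus EpiLC, 9 were higher and 0 lower, with a median of 0.33, and in PGCLC_d3ag3 versus PGCLC_d3, 0 were higher and 8 lower, with a median of -0.26. Against ESC, 9 were higher in PGCLC_d3ag3 and 0 lower, with a median of 0.30. The counts of 0, from limma, were also 0 at an unadjusted p under 0.05, and the background shares are those given above. By group mean, 11 of the 13 were highest in PGCLC_d3, as were 32.9% of all genes tested, and 12 were lowest in ESC, as were 32.4%. The count in EpiLC versus ESC was 5 without ESC replicate 1 and 6 without EpiLC replicate 2, and the count in PGCLC_d3ag3 versus PGCLC_d3 was 5 without PGCLC_d3ag3 replicate 1. In PGCLC_d3ag3 versus ESC, 1 transcript, ND4L, was called lower without ESC replicate 1.

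**Figure D2:**
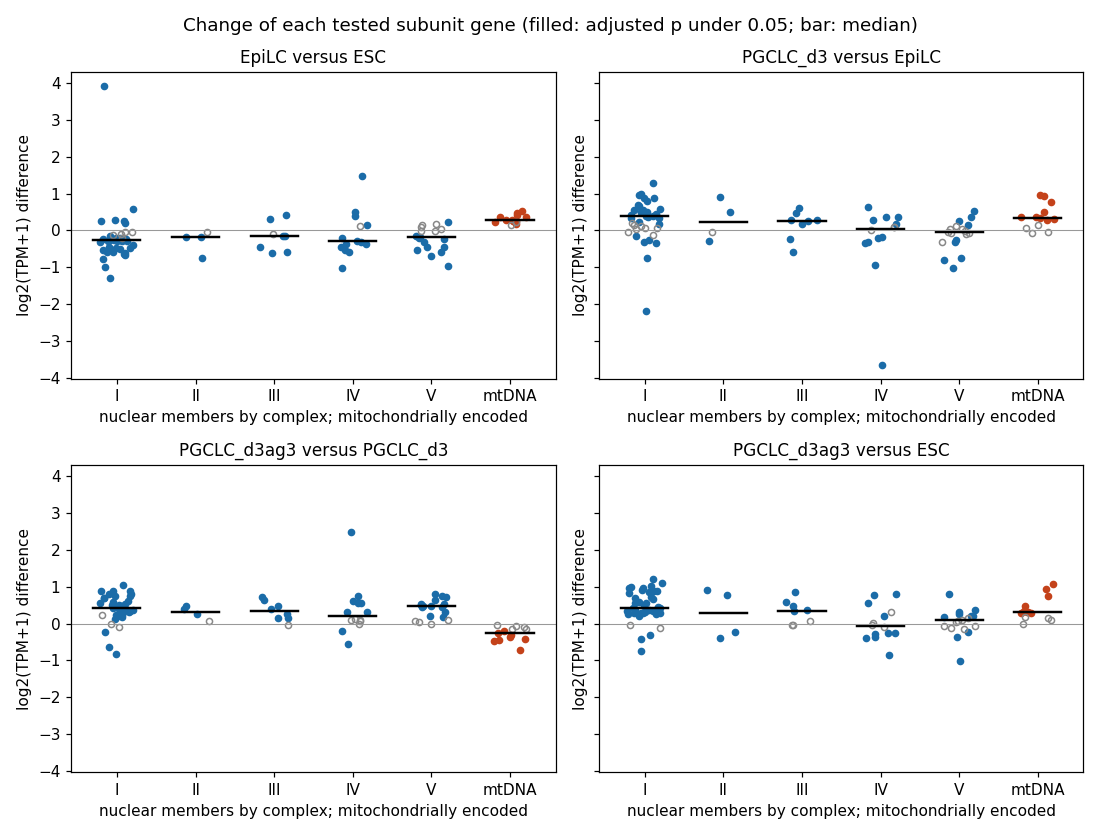
Log2 change of each tested member (y axis) by complex for nuclear members and together for mitochondrial ones (x axis) in the 4 comparisons, with filled points at an adjusted p under 0.05 and a bar at the median of each set. Nuclear members lie mostly below 0 in EpiLC versus ESC (median -0.25) and mostly above it in PGCLC_d3ag3 versus PGCLC_d3 (median 0.41), where the mitochondrial ones lie below it (median -0.26).

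Promoter sequence was read for the nuclear members from RefSeq windows of build GRCr8, of 250 bases before to 50 after each annotated start, and 76 of the 87 matched by symbol. NRF1 (nuclear respiratory factor 1) and the ETS-family protein GABPA are known activators of respiratory chain genes, and YY1 is a zinc-finger factor with known binding near many mitochondrial gene starts. The letters of an NRF1 motif (GCGC, any base, then TGCGC) occurred in 14 of the 76 windows (18.4%) and in 4.25% of the 33469 windows of all genes. All motifs were searched on both strands. The ETS letters CCGGAAGT occurred in 8 (10.5%) and in 3.81% of all, and the YY1 letters AAGATGGCG in 10 (13.2%) and in 1.73% of all. Counted before the start only, the NRF1 letters were in 11 members (14.5%, against 3.75% of all windows) and the ETS letters in 8 (10.5%, against 3.1%). The YY1 letters were in 1 (1.32%, against 0.693%). NRF1 and ETS letters together were in 0 members. The share of all windows with both was not counted, so nothing is read from this 0. Stretches of 100 bases from the part of the window before the start follow for members whose levels are described below, with motif letters in capitals; the first 4 hold NRF1 letters and the last 2 ETS letters. The stretches of Ndufa5 and Ndufv3 end at the start, and those of Cox8a, Uqcrc1, Sdha and Ndufs1 end 4, 9, 34 and 146 bases before it.
Uqcrc1 (chr8:118468114-118468213, plus strand): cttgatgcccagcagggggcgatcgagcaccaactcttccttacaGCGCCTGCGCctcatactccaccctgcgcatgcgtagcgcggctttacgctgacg
Ndufa5 (chr4:53971236-53971335, minus strand): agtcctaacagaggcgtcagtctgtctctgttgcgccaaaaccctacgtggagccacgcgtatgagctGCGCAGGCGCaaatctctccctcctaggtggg
Sdha (chr1:30764419-30764518, plus strand): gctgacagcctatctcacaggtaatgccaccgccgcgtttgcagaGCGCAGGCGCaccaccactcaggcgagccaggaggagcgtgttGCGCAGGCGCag
Ndufv3 (chr20:9613686-9613785, plus strand): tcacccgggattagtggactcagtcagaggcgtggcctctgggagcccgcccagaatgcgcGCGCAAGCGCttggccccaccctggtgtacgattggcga
Ndufs1 (chr9:72073752-72073851, minus strand): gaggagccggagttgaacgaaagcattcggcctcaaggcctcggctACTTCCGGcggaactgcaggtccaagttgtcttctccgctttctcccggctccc
Cox8a (chr1:213833628-213833727, minus strand): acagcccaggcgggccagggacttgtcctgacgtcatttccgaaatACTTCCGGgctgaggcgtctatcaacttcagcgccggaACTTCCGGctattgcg
The set was picked to show members with the letters that went different ways: Uqcrc1, Ndufa5, Sdha and Ndufs1 were higher in PGCLC_d3ag3 than in ESC, and Ndufv3 and Cox8a were lower. A match is a description of these letters and not a binding site, and a window without one says nothing of the factor.

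Complex I, the NADH dehydrogenase, has the most nuclear members. Of the 39, 28 were lower and 6 higher in EpiLC versus ESC, with a median log2 change of -0.27. In PGCLC_d3 versus EpiLC 25 were higher and 6 lower (median 0.38), and in PGCLC_d3ag3 versus PGCLC_d3, 33 were higher and 3 lower (median 0.43). In PGCLC_d3ag3 versus ESC 34 were higher and 3 lower (median 0.42). Over the 4 comparisons in this order, 15.4%, 64.1%, 84.6% and 87.2% were higher, against 35.4%, 47.3%, 25.7% and 42.5% of all genes tested. Lower were 71.8%, 15.4%, 7.69% and 7.69%, against 31.8%, 27.6%, 44.8% and 34.8%. By group mean, 31 of the 39 (79.5%) were highest in PGCLC_d3ag3, against 24.4% of all genes, and 26 (66.7%) lowest in EpiLC, against 26.1%. The nuclear complex I sum was 1.15% ± 0.024 of all TPM in ESC, 0.901% ± 0.019 in EpiLC, 1.16% ± 0.03 in PGCLC_d3 and 1.601% ± 0.09 in PGCLC_d3ag3 (SD, n = 2 each). The accessory subunits, which surround the catalytic core and take part in assembly and stability, numbered 29; of these 24 were lower and 2 higher in EpiLC versus ESC, and 26 were higher and 1 lower in PGCLC_d3ag3 versus PGCLC_d3. Of the 7 nuclear core subunits, which carry the flavin and the iron-sulfur clusters, 2 were lower and 3 higher in EpiLC versus ESC. In PGCLC_d3ag3 versus PGCLC_d3, 5 of the 7 were higher and 1 lower. The core shares in EpiLC versus ESC, 42.9% higher and 28.6% lower, were near the 35.4% and 31.8% of all genes. In PGCLC_d3ag3 versus PGCLC_d3, 71.4% of the core were higher and 14.3% lower, against 25.7% and 44.8%. Of the accessory subunits, 82.8% were lower at the first of these steps and 89.7% higher at the second.

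**Figure D3:**
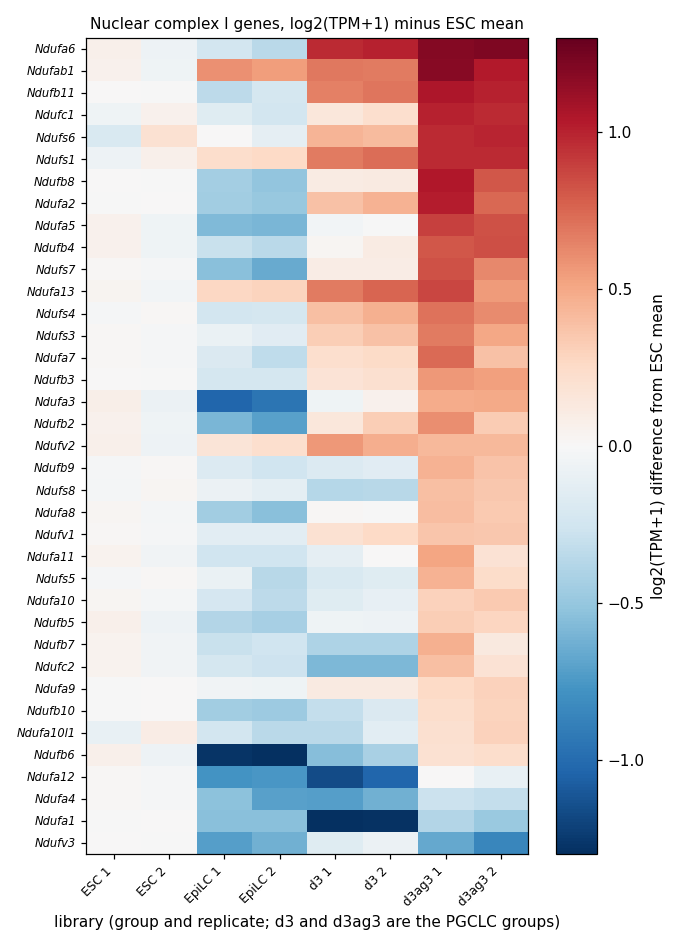
Heat map of nuclear complex I genes (rows) in the 8 libraries (columns), as log2(TPM+1) minus the ESC mean, with colours clipped at -1.3 and 1.3 and Ndufa4l2 and 1 other gene left out. Most rows are lower in the EpiLC columns and higher in the PGCLC_d3ag3 columns than in ESC, with Ndufv3 lower in the PGCLC_d3ag3 columns.

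Ndufb6, an accessory subunit of the membrane arm, had 749 and 684 TPM in ESC, 295 and 288 in EpiLC, 487 and 533 in PGCLC_d3 and 822 and 840 in PGCLC_d3ag3. Its 4 groups did not overlap, and it fell by 1.29 on the log2 scale in EpiLC versus ESC (SE 0.06, limma adjusted p = 5.8e-08), the largest fall of a nuclear member in that comparison. It was higher by 0.70 in PGCLC_d3ag3 versus PGCLC_d3 (adjusted p = 5.8e-06). Ndufa3, a small accessory subunit, had 387 and 350 TPM in ESC, 180 and 190 in EpiLC, 355 and 382 in PGCLC_d3 and 513 and 519 in PGCLC_d3ag3. It was low in EpiLC alone: the PGCLC_d3 libraries lay within the ESC range. Its log2 change was -0.99 in EpiLC versus ESC (SE 0.06, adjusted p = 4.6e-07) and 0.99 in PGCLC_d3 versus EpiLC (SE 0.06, adjusted p = 3.6e-07).

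Other accessory subunits rose in PGCLC_d3 and stayed high. Ndufa6, of the LYR-motif protein family, had 287 and 261 TPM in ESC, 232 and 214 in EpiLC, 537 and 549 in PGCLC_d3 and 628 and 635 in PGCLC_d3ag3, a log2 change of 1.28 in PGCLC_d3 versus EpiLC (SE 0.06, adjusted p = 5.4e-08). Ndufb11, a membrane-arm subunit, had 215 and 212 TPM in ESC, 169 and 182 in EpiLC, 338 and 346 in PGCLC_d3 and 444 and 430 in PGCLC_d3ag3. Both genes were higher in every PGCLC library than in any ESC or EpiLC library. Compared with ESC, the log2 changes in PGCLC_d3ag3 were 1.21 for Ndufa6 (adjusted p = 6.1e-08) and 1.03 for Ndufb11 (adjusted p = 7.1e-08).

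Ndufab1, the mitochondrial acyl carrier protein, which also serves fatty acid and iron-sulfur cluster synthesis, was lowest in ESC. It had 138 and 129 TPM in ESC, 202 and 195 in EpiLC, 215 and 214 in PGCLC_d3 and 305 and 275 in PGCLC_d3ag3. It was higher by 0.57 on the log2 scale in EpiLC versus ESC (SE 0.06, adjusted p = 2.6e-05) and by 1.11 in PGCLC_d3ag3 versus ESC (SE 0.06, adjusted p = 1.4e-07).

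A further 3 accessory genes had the largest rises in PGCLC_d3ag3 versus PGCLC_d3 that the naming rule, with its minimum of 10 TPM in the higher group, admitted. Ndufa12 had 407 and 379 TPM in PGCLC_d3ag3 and 181 and 198 in PGCLC_d3 (log2 change 1.05, SE 0.06, adjusted p = 3.9e-07). Its ESC libraries held 411 and 400 TPM, so the PGCLC_d3ag3 level was near that of ESC and did not pass the test against it (adjusted p = 0.496). Ndufa1, a membrane-arm subunit, had 250 and 252 TPM in ESC, 172 and 172 in EpiLC, 99.7 and 103 in PGCLC_d3 and 192 and 180 in PGCLC_d3ag3. It was lowest in PGCLC_d3, unlike most of the complex, and remained lower in PGCLC_d3ag3 than in ESC (log2 change -0.43, SE 0.05, adjusted p = 3.6e-05). Ndufa5, of the peripheral arm, had 380 and 351 TPM in ESC, 245 and 241 in EpiLC, 356 and 364 in PGCLC_d3 and 680 and 652 in PGCLC_d3ag3 (log2 change 0.89 in PGCLC_d3ag3 versus PGCLC_d3, SE 0.05, adjusted p = 6e-07).

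Of the core subunits, Ndufs1, the largest iron-sulfur protein of the complex, had 192 and 211 TPM in ESC, 237 and 241 in EpiLC, 323 and 334 in PGCLC_d3 and 395 and 394 in PGCLC_d3ag3. It was higher at each of the 3 steps, with no overlap between groups, and by 0.97 on the log2 scale in PGCLC_d3ag3 versus ESC (SE 0.06, adjusted p = 1.4e-07). Ndufv1, which holds the flavin that takes electrons from NADH, had 261 and 254 TPM in ESC, 234 and 234 in EpiLC, 295 and 309 in PGCLC_d3 and 331 and 330 in PGCLC_d3ag3. It passed the test at each step, but the calls in EpiLC versus ESC (log2 change -0.14, adjusted p = 0.0256) and in PGCLC_d3ag3 versus PGCLC_d3 (0.13, adjusted p = 0.0363) did not hold without single libraries. Without ESC replicate 1 or either EpiLC library, the adjusted p at the step to EpiLC was 0.079 to 0.0974, and without any 1 of the PGCLC_d3 or PGCLC_d3ag3 libraries, it was 0.0605 to 0.245 at the step to PGCLC_d3ag3.

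Ndufv3, a small accessory subunit beside the flavin site, fell in PGCLC_d3ag3. It had 87.6 and 87.2 TPM in ESC, 53.0 and 56.2 in EpiLC, 78.1 and 83.1 in PGCLC_d3 and 54.9 and 48.0 in PGCLC_d3ag3. The EpiLC and PGCLC_d3ag3 libraries overlapped and lay below those of the other groups. Its log2 change was -0.64 in PGCLC_d3ag3 versus PGCLC_d3 (SE 0.08, adjusted p = 4.5e-05) and -0.76 in PGCLC_d3ag3 versus ESC (SE 0.08, adjusted p = 8.2e-06).

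Complex II, the 1 complex with no mitochondrial subunit, was split between its parts. Sdha, the flavoprotein that oxidizes succinate, had 305 and 332 TPM in ESC, 265 and 294 in EpiLC, 516 and 523 in PGCLC_d3 and 525 and 567 in PGCLC_d3ag3. Sdhb, the iron-sulfur subunit, had 355 and 356 TPM in ESC, 351 and 342 in EpiLC, 486 and 494 in PGCLC_d3 and 666 and 686 in PGCLC_d3ag3. Both catalytic subunits were higher in the PGCLC libraries than in any ESC or EpiLC library. The membrane anchors lay the other way: Sdhc had 605 and 617 TPM in ESC, 539 and 544 in EpiLC, 443 and 440 in PGCLC_d3 and 509 and 540 in PGCLC_d3ag3. Sdhd had 453 and 475 TPM in ESC, 279 and 271 in EpiLC, 271 and 258 in PGCLC_d3 and 360 and 342 in PGCLC_d3ag3. Both anchors were highest in ESC. In PGCLC_d3ag3 versus ESC the log2 changes were 0.78 for Sdha (SE 0.07, adjusted p = 2.9e-06), 0.93 for Sdhb (SE 0.05, adjusted p = 4.9e-08), -0.22 for Sdhc (SE 0.05, adjusted p = 0.00187) and -0.40 for Sdhd (SE 0.05, adjusted p = 6.4e-05). Sdhd fell by 0.75 in EpiLC versus ESC (adjusted p = 1e-06); the call of Sdha (-0.19, adjusted p = 0.0316) was lost on leaving out ESC replicate 2 or EpiLC replicate 1, at adjusted p of 0.199 and 0.238. As a sum, complex II held 0.18% of all TPM in ESC, 0.15% in EpiLC, 0.17% in PGCLC_d3 and 0.21% in PGCLC_d3ag3 (mean of 2 libraries).

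Complex III had 8 nuclear members, of which 5 were lower and 2 higher in EpiLC versus ESC, 6 higher and 2 lower in PGCLC_d3 versus EpiLC, 7 higher and 0 lower in PGCLC_d3ag3 versus PGCLC_d3, and 5 higher and 0 lower in PGCLC_d3ag3 versus ESC. The medians were -0.16, 0.26, 0.34 and 0.35 in that order. In percent, 25.0%, 75.0%, 87.5% and 62.5% were higher, against 35.4%, 47.3%, 25.7% and 42.5% of all genes. Lower were 62.5%, 25.0%, 0% and 0%, against 31.8%, 27.6%, 44.8% and 34.8%. Uqcrc1, a core protein of the matrix side, had 821 and 790 TPM in ESC, 543 and 524 in EpiLC, 737 and 733 in PGCLC_d3 and 1221 and 1207 in PGCLC_d3ag3. Its partner Uqcrc2 had 164 and 162 TPM in ESC, 122 and 115 in EpiLC, 144 and 142 in PGCLC_d3 and 158 and 158 in PGCLC_d3ag3. Both were lowest in EpiLC, and in PGCLC_d3ag3 Uqcrc1 lay above ESC (log2 change 0.59, SE 0.05, adjusted p = 1.3e-06) while Uqcrc2 had a change of -0.04 that did not pass (adjusted p = 0.492). Uqcrfs1, the Rieske iron-sulfur protein that hands electrons to cytochrome c1, had 218 and 222 TPM in ESC, 291 and 299 in EpiLC, 362 and 355 in PGCLC_d3 and 398 and 399 in PGCLC_d3ag3. It was higher at each step with no overlap between groups, though in PGCLC_d3ag3 versus PGCLC_d3 (0.15, adjusted p = 0.0138) the call was lost without PGCLC_d3 replicate 1 or 2, at adjusted p of 0.0577 and 0.0978. In PGCLC_d3ag3 versus ESC its log2 change was 0.86 (SE 0.05, adjusted p = 8.9e-08).

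Complex IV, cytochrome c oxidase, had the median closest to 0 of the 5 complexes among nuclear members in PGCLC_d3ag3 versus ESC. Of its 18 nuclear members 14 were tested, and 9 were lower and 4 higher in EpiLC versus ESC, 6 lower and 5 higher in PGCLC_d3 versus EpiLC, 2 lower and 7 higher in PGCLC_d3ag3 versus PGCLC_d3, and 6 lower and 4 higher in PGCLC_d3ag3 versus ESC. The medians were -0.29, 0.05, 0.22 and -0.06. In the same order, 28.6%, 35.7%, 50.0% and 28.6% were higher, against 35.4%, 47.3%, 25.7% and 42.5% of all genes. Lower were 64.3%, 42.9%, 14.3% and 42.9%, against 31.8%, 27.6%, 44.8% and 34.8%. The nuclear sum was 0.99% ± 0.01 of all TPM in ESC, 0.86% ± 0.02 in EpiLC, 0.78% ± 0.01 in PGCLC_d3 and 1.00% ± 0.05 in PGCLC_d3ag3 (SD, n = 2 each), so it was lowest in PGCLC_d3, where the mitochondrial part of the same complex, COX1 to COX3, was highest at 2.49% ± 0.26. Cox4i1, the widely expressed form of the largest nuclear subunit, had 460 and 469 TPM in ESC, 350 and 327 in EpiLC, 413 and 402 in PGCLC_d3 and 420 and 450 in PGCLC_d3ag3. It fell by 0.46 on the log2 scale in EpiLC versus ESC (SE 0.06, adjusted p = 5e-05).

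Cox7a2l, known in human and mouse as a factor that joins complexes III and IV into supercomplexes, had 250 and 238 TPM in ESC, 124 and 115 in EpiLC, 130 and 124 in PGCLC_d3 and 130 and 137 in PGCLC_d3ag3. The ESC libraries stood apart from the other 6, which lay between 115 and 137 TPM. Its log2 change was -1.02 in EpiLC versus ESC (SE 0.06, adjusted p = 2.8e-07) and -0.87 in PGCLC_d3ag3 versus ESC (SE 0.06, adjusted p = 5.8e-07). A gene with a copy-like symbol, Cox7a2l2, is in the same table, and reads shared between the 2 could not be assigned with certainty. Cox7a2, the widely expressed form of its family, had 483 and 509 TPM in ESC, 417 and 401 in EpiLC, 525 and 534 in PGCLC_d3 and 605 and 544 in PGCLC_d3ag3, and Cox7a1 was not analysed here. Cox8a, the common form of subunit VIII, had 470 and 433 TPM in ESC, 502 and 502 in EpiLC, 400 and 398 in PGCLC_d3 and 347 and 343 in PGCLC_d3ag3. It was lowest in PGCLC_d3ag3, against the direction of most nuclear members, and fell by 0.39 in PGCLC_d3ag3 versus ESC (SE 0.05, adjusted p = 6.8e-05).

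Several subunits have alternative forms that are known from muscle, lung or testis, and these were read side by side. The muscle or lung forms Cox4i2, Cox6a2, Cox8b and the testis form Cox8c were at most 1.14 TPM in any library and were not tested. Cox6a1, the common form, had 2365 and 2381 TPM in ESC, 1889 and 1803 in EpiLC, 1636 and 1633 in PGCLC_d3 and 2534 and 2276 in PGCLC_d3ag3. Cox6b2, known as a testis form, had 26.6 and 32.8 TPM in ESC, 42.9 and 40.7 in EpiLC, 66.9 and 62.6 in PGCLC_d3 and 39.0 and 49.6 in PGCLC_d3ag3. It was highest in PGCLC_d3, with a log2 change of 0.62 against EpiLC (SE 0.12, adjusted p = 0.00115) and -0.55 in PGCLC_d3ag3 versus PGCLC_d3 (SE 0.12, adjusted p = 0.00287). Its common counterpart Cox6b1 had 392 and 391 TPM in ESC, 278 and 265 in EpiLC, 309 and 307 in PGCLC_d3 and 309 and 302 in PGCLC_d3ag3, so the common form stayed well above it in every library.

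Cox7b2, a form known from human testis, had 3.85 and 3.23 TPM in ESC, 12.0 and 11.1 in EpiLC and 4.27 and 5.04 in PGCLC_d3ag3, and was listed at 0 in both PGCLC_d3 libraries. It passed the test in all comparisons but PGCLC_d3ag3 versus ESC (adjusted p = 9.7e-09 in PGCLC_d3 versus EpiLC and 0.054 in PGCLC_d3ag3 versus ESC). Cox7b, the common form, had 1006 and 972 TPM in ESC, 808 and 789 in EpiLC, 620 and 675 in PGCLC_d3 and 842 and 773 in PGCLC_d3ag3, so it was at its lowest in the same group but far from 0. Ndufa4l2, a known HIF target and paralog of Ndufa4, had 0.10 and 0.07 TPM in ESC, 17.4 and 13.9 in EpiLC, 1.94 and 3.42 in PGCLC_d3 and 1.09 and 0.95 in PGCLC_d3ag3. It stood out in EpiLC, with a log2 change of 3.92 against ESC (SE 0.19, adjusted p = 7.3e-08) and of -2.20 in PGCLC_d3 versus EpiLC (SE 0.19, adjusted p = 3.5e-06). Ndufa4, named for complex I but now placed in complex IV, had 871 and 855 TPM in ESC, 596 and 528 in EpiLC, 524 and 559 in PGCLC_d3 and 709 and 694 in PGCLC_d3ag3, and fell by 0.62 in EpiLC versus ESC (adjusted p = 1.4e-05), where its paralog was highest.

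The electron carrier between complexes III and IV is no member but showed a like pair. Cyct, the testis form of cytochrome c, had 32.0 and 32.4 TPM in ESC, 32.7 and 24.0 in EpiLC, 0.13 and 0.15 in PGCLC_d3 and 54.0 and 62.7 in PGCLC_d3ag3. Like Cox7b2, it was near 0 in PGCLC_d3 and present in the 3 other groups, with a log2 change of -4.66 in PGCLC_d3 versus EpiLC (adjusted p = 2.8e-09) and 5.69 in PGCLC_d3ag3 versus PGCLC_d3 (adjusted p = 3.4e-09). The somatic form Cycs had 164 and 163 TPM in ESC, 184 and 179 in EpiLC, 118 and 130 in PGCLC_d3 and 185 and 200 in PGCLC_d3ag3.

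**Figure D4:**
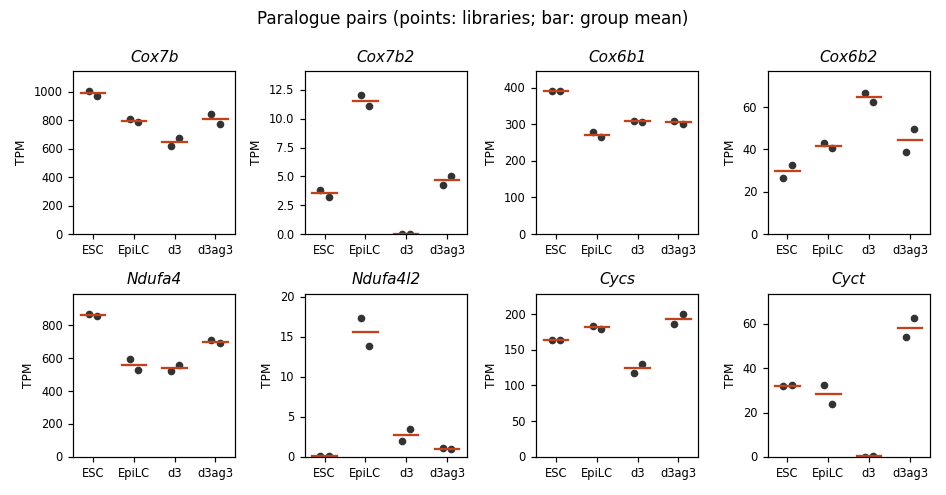
TPM (y axis, linear, a scale for each panel) of 4 pairs of a common and an alternative form in each library of the 4 groups (x axis). Cox7b2 and Cyct drop to 0 and to 0.13 and 0.15 TPM in PGCLC_d3, and Ndufa4l2 peaks at 13.9 and 17.4 TPM in EpiLC, while the common forms stay above 100 TPM.

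Complex V, the ATP synthase, had 18 nuclear members, of which 11 were lower and 1 higher in EpiLC versus ESC, 5 lower and 4 higher in PGCLC_d3 versus EpiLC, 0 lower and 14 higher in PGCLC_d3ag3 versus PGCLC_d3, and 3 lower and 7 higher in PGCLC_d3ag3 versus ESC. The 1 member higher in EpiLC versus ESC was Atp5if1 (log2 change 0.22, limma adjusted p = 0.0136), an inhibitor of the enzyme that the symbol rule takes in. Over the comparisons in the order above, the medians were -0.19, -0.06, 0.47 and 0.09. In the same order, 5.56%, 22.2%, 77.8% and 38.9% were higher, against 35.4%, 47.3%, 25.7% and 42.5% of all genes. Lower were 61.1%, 27.8%, 0% and 16.7%, against 31.8%, 27.6%, 44.8% and 34.8%. By group mean 10 of the 18 (55.6%) were lowest in PGCLC_d3, as were 14.1% of all genes tested. Complex I, with 6 of 39 (15.4%), was near that share of all genes. Atp5f1a, the alpha subunit of the catalytic head, had 1240 and 1292 TPM in ESC, 1377 and 1340 in EpiLC, 1386 and 1391 in PGCLC_d3 and 1428 and 1431 in PGCLC_d3ag3. Atp5f1b, the catalytic beta subunit and the nuclear member with the highest group mean in each group, had 2869 and 2907 TPM in ESC, 2361 and 2503 in EpiLC, 2347 and 2378 in PGCLC_d3 and 2474 and 2486 in PGCLC_d3ag3. Neither passed the test in PGCLC_d3 versus EpiLC or in PGCLC_d3ag3 versus PGCLC_d3, with log2 changes between -0.04 and 0.07.

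The peripheral stalk, which holds the catalytic head still against the turning ring, has 4 genes among the members. All 4 were lower in EpiLC versus ESC, as were 11 of the 18 nuclear members of complex V and 31.8% of all genes. All 4 were higher in PGCLC_d3ag3 versus PGCLC_d3, as were 14 of the 18 and 25.7% of all genes. Atp5pb, the b subunit of the stalk, had 964 and 1024 TPM in ESC, 750 and 716 in EpiLC, 358 and 361 in PGCLC_d3 and 489 and 499 in PGCLC_d3ag3. It was lower in both PGCLC groups than in any ESC or EpiLC library, with log2 changes of -1.02 in PGCLC_d3 versus EpiLC (SE 0.05, adjusted p = 6.3e-08) and -1.01 in PGCLC_d3ag3 versus ESC (SE 0.05, adjusted p = 5.3e-08). In PGCLC_d3ag3 versus ESC the other 3 stalk genes were higher.

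The c subunit of the proton-driven ring is encoded by 3 genes whose mature proteins are identical. Atp5mc1 had 872 and 846 TPM in ESC, 569 and 570 in EpiLC, 478 and 465 in PGCLC_d3 and 835 and 804 in PGCLC_d3ag3. Atp5mc2 had 560 and 542 TPM in ESC, 571 and 562 in EpiLC, 746 and 705 in PGCLC_d3 and 714 and 712 in PGCLC_d3ag3. Atp5mc3 had 1304 and 1320 TPM in ESC, 1193 and 1161 in EpiLC, 1193 and 1205 in PGCLC_d3 and 1390 and 1334 in PGCLC_d3ag3. Atp5mc1 and Atp5mc2 went opposite ways in PGCLC_d3 versus EpiLC, with log2 changes of -0.27 (SE 0.05, adjusted p = 0.00046) and 0.36 (SE 0.05, adjusted p = 8.2e-05). Atp5mc1 rose in PGCLC_d3ag3 versus PGCLC_d3 by 0.79 (SE 0.05, adjusted p = 4.9e-07), where Atp5mc2 had a change of -0.02 that did not pass (adjusted p = 0.668).

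The 13 mitochondrial genes are read from the same genome as shared precursors, and their changes were unequal. Where frames overlap, as for ATP8 with ATP6 and ND4L with ND4, reads cannot be assigned to either gene with certainty. Whether such neighbours changed as separate messages was not tested. COX3, a core subunit of complex IV, had 6246 and 7205 TPM in ESC, 8237 and 8000 in EpiLC, 14724 and 12925 in PGCLC_d3 and 12800 and 13115 in PGCLC_d3ag3. ATP6, the subunit of the proton channel of ATP synthase, had 7185 and 7311 TPM in ESC, 9802 and 11159 in EpiLC, 10652 and 9620 in PGCLC_d3 and 8592 and 9567 in PGCLC_d3ag3. ATP6 thus had the highest mean of the members in ESC and EpiLC, and COX3 in both PGCLC groups, on a scale that is per transcript length. COX3 made up 21.2% and 22.3% of the mitochondrial sum in ESC, 21.2% and 19.5% in EpiLC, 27.6% and 27.0% in PGCLC_d3 and 30.6% and 29.4% in PGCLC_d3ag3. In PGCLC_d3 versus EpiLC, COX3 had a log2 change of 0.77 (SE 0.08, adjusted p = 1.4e-05) and ATP6 of -0.05 (SE 0.08, adjusted p = 0.617).

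The complex I subunits of the mitochondrial genome include the pumps of the membrane arm. ND5 had 404 and 471 TPM in ESC, 509 and 541 in EpiLC, 993 and 1042 in PGCLC_d3 and 917 and 919 in PGCLC_d3ag3. ND6, encoded on the opposite strand to the other 12, had 403 and 462 TPM in ESC, 456 and 494 in EpiLC, 880 and 927 in PGCLC_d3 and 674 and 776 in PGCLC_d3ag3. Both were higher in every PGCLC library than in any ESC or EpiLC library. In PGCLC_d3 versus EpiLC the log2 changes were 0.95 for ND5 (SE 0.07, adjusted p = 1.2e-06) and 0.93 for ND6 (SE 0.08, adjusted p = 4.8e-06), and in PGCLC_d3ag3 versus ESC 1.07 (adjusted p = 4.1e-07) and 0.74 (adjusted p = 2.1e-05). The 2 genes lie next to each other on opposite strands, and the library kit is not stated to keep strand, so reads of ND6 and of RNA antisense to it cannot be told apart.

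ND1, ND2 and ND4 shared a smaller rise. ND1 had 2155 and 2343 TPM in ESC, 2522 and 2762 in EpiLC, 3324 and 3157 in PGCLC_d3 and 2983 and 3237 in PGCLC_d3ag3. ND2 had 1846 and 1885 TPM in ESC, 2038 and 2179 in EpiLC, 2679 and 2718 in PGCLC_d3 and 2254 and 2441 in PGCLC_d3ag3. ND4 had 1336 and 1571 TPM in ESC, 1681 and 1807 in EpiLC, 2189 and 2057 in PGCLC_d3 and 1770 and 1786 in PGCLC_d3ag3. All 3 were lowest in ESC and highest by mean in PGCLC_d3, and in PGCLC_d3ag3 versus ESC the log2 changes were 0.47 for ND1 (adjusted p = 0.00013), 0.33 for ND2 (adjusted p = 0.00038) and 0.29 for ND4 (adjusted p = 0.0051). In EpiLC versus ESC their changes of 0.23, 0.18 and 0.27 passed (adjusted p = 0.0127, 0.0191 and 0.0108) but not without ESC replicate 1 (adjusted p = 0.102, 0.0848 and 0.091) or EpiLC replicate 2 (adjusted p = 0.12, 0.149 and 0.0927). ND4 in PGCLC_d3 versus EpiLC (0.28, adjusted p = 0.00669) was not called without EpiLC replicate 1 or PGCLC_d3 replicate 1, at adjusted p of 0.0651 and 0.057.

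ND4L, whose reading frame overlaps the start of ND4, had 541 and 736 TPM in ESC, 728 and 756 in EpiLC, 1067 and 1013 in PGCLC_d3 and 653 and 605 in PGCLC_d3ag3. It had the largest fall of the 13 in PGCLC_d3ag3 versus PGCLC_d3, by 0.73 on the log2 scale (SE 0.12, adjusted p = 0.00031). ND4 had a log2 change of -0.26 in that comparison, and reads over the overlap of both frames are uncertain. The PGCLC_d3ag3 libraries of ND4L lay within the ESC range. ND3 had 194 and 196 TPM in ESC, 233 and 237 in EpiLC, 220 and 225 in PGCLC_d3 and 235 and 199 in PGCLC_d3ag3. It was the lowest of the 13 by group mean in every group, and passed the test in EpiLC versus ESC only (log2 change 0.27, SE 0.07, adjusted p = 0.00783).

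**Figure D5:**
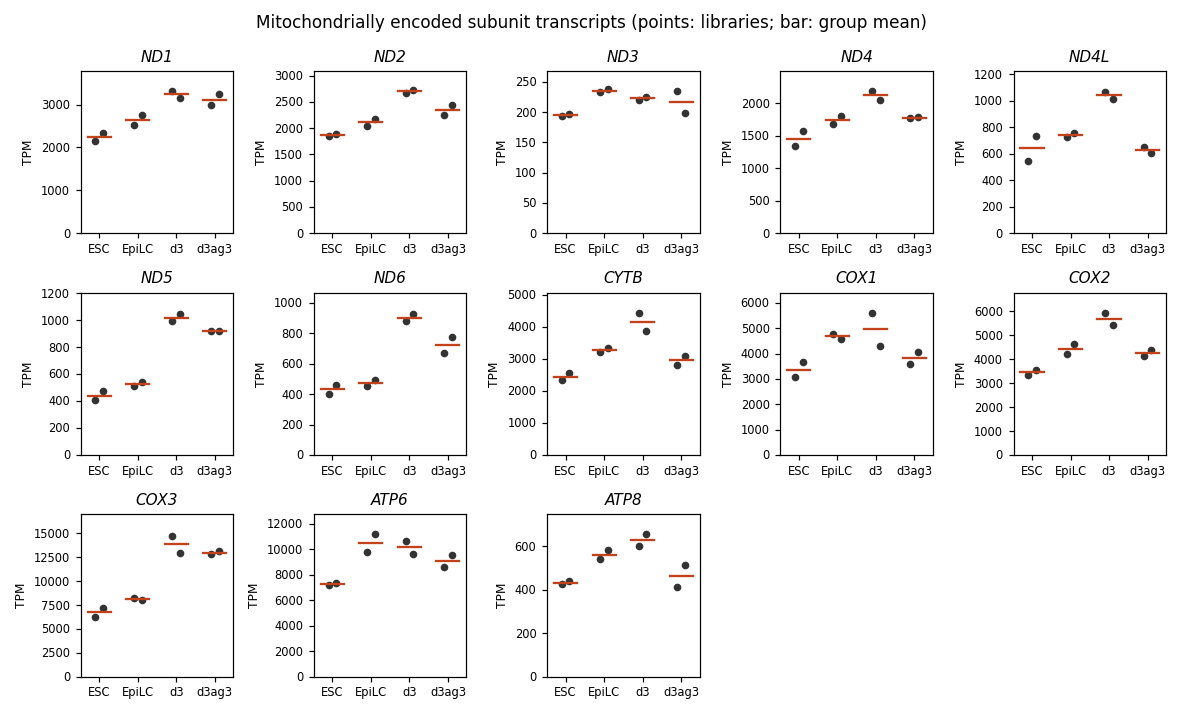
TPM (y axis, linear, a scale for each panel) of the 13 mitochondrial transcripts in each library of the 4 groups (x axis). ND5, ND6 and COX3 are higher in every PGCLC library than in any ESC or EpiLC library, while COX1, ATP6 and ND4L in PGCLC_d3ag3 lie below the EpiLC values.

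The remaining mitochondrial transcripts were called lower in PGCLC_d3ag3 than in PGCLC_d3. CYTB, the haem protein of complex III, had 2335 and 2559 TPM in ESC, 3222 and 3356 in EpiLC, 4426 and 3869 in PGCLC_d3 and 2824 and 3097 in PGCLC_d3ag3, with no overlap between groups (log2 change -0.48 in PGCLC_d3ag3 versus PGCLC_d3, SE 0.08, adjusted p = 0.00033). COX2, the subunit that takes electrons from cytochrome c, had 3349 and 3550 TPM in ESC, 4204 and 4617 in EpiLC, 5922 and 5411 in PGCLC_d3 and 4129 and 4374 in PGCLC_d3ag3. Its PGCLC_d3ag3 libraries overlapped with EpiLC and lay below PGCLC_d3 (log2 change -0.41, SE 0.07, adjusted p = 0.0004). COX1, the catalytic subunit of complex IV, had 3088 and 3647 TPM in ESC, 4760 and 4591 in EpiLC, 5590 and 4305 in PGCLC_d3 and 3582 and 4044 in PGCLC_d3ag3. Its PGCLC_d3 libraries were the most spread, and its change of -0.37 in PGCLC_d3ag3 versus PGCLC_d3 (SE 0.12, adjusted p = 0.0202) was not called without PGCLC_d3 replicate 1 (-0.18, adjusted p = 0.197) or PGCLC_d3ag3 replicate 1 (-0.28, adjusted p = 0.132). COX1 had a change of 0.48 in EpiLC versus ESC (adjusted p = 0.00548), and 0.36 without ESC replicate 1 (adjusted p = 0.0645). ATP8, whose frame overlaps ATP6, had 424 and 441 TPM in ESC, 542 and 582 in EpiLC, 601 and 654 in PGCLC_d3 and 414 and 512 in PGCLC_d3ag3 (log2 change -0.44 in PGCLC_d3ag3 versus PGCLC_d3, SE 0.09, adjusted p = 0.00157).

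Quantile normalization sets all values by rank, those of the few genes at the top of the table included. Under it COX2 had a change of 0.00 in PGCLC_d3ag3 versus PGCLC_d3 (adjusted p = 1), COX1 of -0.08 (adjusted p = 0.36), and COX3 in EpiLC versus ESC turned to -0.26 (adjusted p = 0.00031), against 0.28 on the deposited values (adjusted p = 0.0129). The COX3 call in EpiLC versus ESC was also lost without ESC replicate 1 (0.17, adjusted p = 0.119) and without either EpiLC library (adjusted p = 0.083 and 0.0511), so its direction at that step is not settled here. COX3 in PGCLC_d3 versus EpiLC kept its direction and call under every alternative run.

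Genes that build the complexes were read beside the subunits. Of 14 complex I assembly factors tested, of 16 listed, 10 were higher and 2 lower in PGCLC_d3 versus EpiLC, 10 higher and 0 lower in PGCLC_d3ag3 versus PGCLC_d3, and 3 higher and 4 lower in EpiLC versus ESC. In percent, 71.4% were higher in both of the first comparisons, where 47.3% and 25.7% of all genes were, and at the step to EpiLC 21.4% were higher and 28.6% lower, below the 35.4% and 31.8% of all genes. Ndufaf7, an arginine methyltransferase needed for complex I assembly in human cells, had 23.4 and 20.9 TPM in ESC, 21.5 and 22 in EpiLC, 51.8 and 49.4 in PGCLC_d3 and 64.3 and 70.6 in PGCLC_d3ag3. It was higher by 1.57 on the log2 scale in PGCLC_d3ag3 versus ESC (adjusted p = 7.9e-08). Ndufaf5, which acts on Ndufs7 in human cells, had 119 and 130 TPM in PGCLC_d3ag3 and 64.0 and 65.4 in PGCLC_d3 (log2 change 0.93, adjusted p = 2.4e-06). Others fell: Ndufaf8 had 51.0 and 71.2 TPM in PGCLC_d3 and 116 and 111 in EpiLC (log2 change -0.90, adjusted p = 0.00014), and Ndufaf1 fell by 0.90 in EpiLC versus ESC (adjusted p = 1.1e-05). Of 31 assembly factors of complexes II to V tested, 14 were higher and 6 lower in PGCLC_d3ag3 versus PGCLC_d3, or 45.2% and 19.4%, against 25.7% and 44.8% of all genes. Sdhaf4, which binds Sdha during assembly in yeast and fly, had 22.5 and 21.2 TPM in ESC, 42.2 and 42.3 in EpiLC, 114 and 119 in PGCLC_d3 and 178 and 165 in PGCLC_d3ag3, with no overlap between groups and a log2 change of 2.91 in PGCLC_d3ag3 versus ESC (adjusted p = 3.9e-10). Cox19 had 21.3 and 21.0 TPM in ESC, 15.0 and 14.6 in EpiLC, 9.48 and 10.3 in PGCLC_d3 and 7.80 and 10.03 in PGCLC_d3ag3, the reverse direction (log2 change -1.17 in PGCLC_d3ag3 versus ESC, adjusted p = 1.1e-05). Other falls were those of Cox11 in EpiLC versus ESC (-0.89, adjusted p = 6.8e-05), Sdhaf3 in PGCLC_d3 versus EpiLC (-0.87, adjusted p = 8.1e-05) and Cox20 in PGCLC_d3ag3 versus PGCLC_d3 (-0.73, adjusted p = 0.0037; -0.37, adjusted p = 0.0608 under quantile normalization).

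Of 27 genes for mitochondrial DNA replication, transcription and RNA handling, 15 were higher and 5 lower in EpiLC versus ESC, 16 and 3 in PGCLC_d3 versus EpiLC, 12 and 6 in PGCLC_d3ag3 versus PGCLC_d3, and 20 and 3 in PGCLC_d3ag3 versus ESC. The shares called higher were 55.6%, 59.3%, 44.4% and 74.1% in that order, against 35.4%, 47.3%, 25.7% and 42.5% of all genes. Tefm, the elongation factor of mitochondrial transcription, had 19.2 and 21.2 TPM in ESC, 42.1 and 37.5 in EpiLC, 70.4 and 73.8 in PGCLC_d3 and 129 and 127 in PGCLC_d3ag3, rising at every step (log2 change 2.61 in PGCLC_d3ag3 versus ESC, adjusted p = 2e-09). Lrpprc, which stabilizes mitochondrial messages, had 116 and 133 TPM in ESC, 161 and 168 in EpiLC, 292 and 299 in PGCLC_d3 and 266 and 267 in PGCLC_d3ag3. Like most mitochondrial transcripts, it was highest in PGCLC_d3, and it was higher by 0.84 in PGCLC_d3 versus EpiLC (adjusted p = 1.9e-06). Polrmt, the mitochondrial RNA polymerase, had 21.4 and 24.0 TPM in ESC, 16.7 and 15.2 in EpiLC, 36.9 and 37.7 in PGCLC_d3 and 27.3 and 26.2 in PGCLC_d3ag3. Tfam, which packages mitochondrial DNA and starts its transcription, had 304 and 276 TPM in ESC, 349 and 334 in EpiLC, 324 and 334 in PGCLC_d3 and 469 and 458 in PGCLC_d3ag3. The largest falls of the list that passed the test were those of Mterf1 in EpiLC versus ESC (-0.52, adjusted p = 0.00063), Tbrg4 in PGCLC_d3 versus EpiLC (-0.74, adjusted p = 2.3e-06), Polg2 in PGCLC_d3ag3 versus PGCLC_d3 (-0.88, adjusted p = 0.00011) and Elac2 in PGCLC_d3ag3 versus ESC (-0.77, adjusted p = 1.7e-05).

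Among 8 tested regulators of nuclear respiratory genes, of 10 listed, 0 were higher (1 at an unadjusted p under 0.05) and 3 lower in EpiLC versus ESC, 5 higher and 1 lower in PGCLC_d3 versus EpiLC, and 2 higher and 4 lower in PGCLC_d3ag3 versus PGCLC_d3. In PGCLC_d3ag3 versus ESC 2 were higher and 5 lower. In PGCLC_d3ag3 versus PGCLC_d3 the shares, 25.0% higher and 50.0% lower, were near the 25.7% and 44.8% of all genes. In EpiLC versus ESC they were 0% and 37.5%, against 35.4% and 31.8%, and in PGCLC_d3 versus EpiLC 62.5% and 12.5%, against 47.3% and 27.6%. In PGCLC_d3ag3 versus ESC 25.0% were higher and 62.5% lower, against 42.5% and 34.8%. Nrf1 had 23.7 and 24.9 TPM in ESC, 24.2 and 25.0 in EpiLC, 22.6 and 23.8 in PGCLC_d3 and 29.5 and 35.3 in PGCLC_d3ag3, and was higher in PGCLC_d3ag3 versus PGCLC_d3 (log2 change 0.46, adjusted p = 0.00183). Gabpa had 69.8 and 80.1 TPM in ESC, 81.0 and 80.3 in EpiLC, 45.9 and 47.9 in PGCLC_d3 and 42.5 and 44.8 in PGCLC_d3ag3. Its partner Gabpb1 had 21.4 and 20.6 TPM in ESC, 23.2 and 22 in EpiLC, 29.1 and 28.7 in PGCLC_d3 and 43.2 and 42.7 in PGCLC_d3ag3. The DNA-binding and the partner subunit of this factor thus differed in opposite directions in PGCLC_d3ag3 versus ESC (log2 changes -0.76 and 1.00, adjusted p = 7.9e-06 and 9.4e-07). Esrrb, an orphan nuclear receptor that is also one of the naive markers, had 111 and 125 TPM in ESC, 0.97 and 0.53 in EpiLC, 20.5 and 20.1 in PGCLC_d3 and 13.6 and 14.7 in PGCLC_d3ag3 (log2 change -6.10 in EpiLC versus ESC, adjusted p = 4e-10). Ppargc1a, the coactivator best known for driving mitochondrial biogenesis, was below 1 TPM in every library and was not tested.

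Some limits touch single members. Of the 87 nuclear members, 45 have numbered or pseudogene copies by symbol in RefSeq, up to 11 for a gene, and how the counting shared reads between them is not given in the sources used here. Atp5hl1 is annotated there as a pseudogene, and Ndufa10l1 and Cox7a2l2 are copy-like, so their values, 10.1 to 119 TPM, are uncertain. By correlation over all named genes, the 2 PGCLC_d3ag3 libraries differed from each other more than those of other groups (0.9965, against 0.9979 to 0.9985). Since the fit shares its spread over the groups, SE and adjusted p may be too small in the comparisons with PGCLC_d3ag3. Ndufa11, chosen after its values were seen, had 715 and 570 TPM in PGCLC_d3ag3 and 463 and 502 in PGCLC_d3.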

How the data were processed

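The 8 sample titles gave each library its group and replicate number. RNA was isolated with PicoPure and converted to libraries with SMART-Seq v4 and KAPA Hyper Prep, per the labels' protocols. The tools, per the submitters' processing notes, were bcl2fastq 2.20, cutadapt 1.1.6, HISAT2 2.1.0 and featureCounts of Subread 1.6.5, with genome build rn7. The deposited values are log2(TPM+1) per gene and sample, as the authors made them; the strand setting and the handling of reads that map to several places are not given in the sources used here. TPM was recovered as the power of 2 minus 1. Of 33294 rows, 11066 had a blank name and were left out.

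The filter of 1 TPM or more in 2 or more libraries left 13571 genes. They were tested with limma 3.58.1 (lmFit, eBayes with trend, 2-sided) under R 4.3.3, with the 4 groups in 1 fit on the log2 scale and 4 residual degrees of freedom. The adjusted p is Benjamini-Hochberg over all genes tested, and the fit was tested on simulated data. Summaries used Python 3.11.15 with pandas 2.3.3. TPM values share a fixed total, so every value is relative to the other genes of its library. Whether reads of the mouse feeders were counted as rat genes in ESC was not tested. Relative depth came from the steps between the lowest values of a gene.

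The members, the other gene lists and the naming rule were chosen with earlier results of these data known. Named are all mitochondrial members, per comparison the 3 largest rises and falls of nuclear members past the test, given a mean of 10 TPM or more in the higher of both groups, isoform sets, the succinate dehydrogenase genes and selected core subunits, plus regulators and the largest movers of the other lists. The values of 1 of the selected core subunits are not reported here. The lists cover assembly factors of complex I and of complexes II to V, mitochondrial DNA expression, regulators, the TCA cycle, electron carriers, and cell type and stress markers. Alternatives were a pseudocount of 0.1, no filter, a TPM minimum of 5, quantile normalization, rescaling without mitochondrial transcripts, a replicate block, and leaving out each library.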

Additional observations from a re-analysis of the deposited data

How the results depend on the processing

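The 16 counts of nuclear and mitochondrial members stayed within 1.5 times their main value under every alternative run except the following. Mitochondrial members lower in EpiLC versus ESC were 1 under quantile normalization, against 0 on the deposited values. On leaving out 1 library at a time, mitochondrial members higher in EpiLC versus ESC were 5 to 12 (11 with all libraries), those lower in PGCLC_d3ag3 versus PGCLC_d3 were 5 to 9 (8 with all), and those lower in PGCLC_d3ag3 versus ESC were 0 to 1 (0 with all). Where this left a group with 1 library, that library was assumed to vary like the others. Of 5036 single-gene values under the alternatives, 4844 kept their direction and their side of the threshold, 124 lost the call, 66 gained one and 2 reversed, both under quantile normalization. These were COX3 in EpiLC versus ESC, at -0.26 (adjusted p = 0.00031), and the assembly factor Cox11 in PGCLC_d3 versus EpiLC, at -0.059 (adjusted p = 0.631). By construction, quantile normalization gives each rank the same value in every library. The cause of the reversal was not tested for either gene.

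Replicate numbers did not pair the libraries: the correlation of replicate differences between groups was -0.037 to 0.066. With a replicate block the nuclear members lower in EpiLC versus ESC were 57 and those higher in PGCLC_d3ag3 versus PGCLC_d3 were 65, against 56 and 64 without it. The TPM filter left out Cox4i2, Cox6a2, Cox8b and Cox8c, at most 1.14 TPM in any library, so they were not tested. A value of 0 for Cox7b2 says only that it is listed at 0.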

Other observations

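The oxidative steps that feed the complexes were read from a list of 17 genes of the TCA cycle and pyruvate dehydrogenase. In EpiLC versus ESC 12 were lower and 1 higher, in PGCLC_d3 versus EpiLC 5 were lower and 8 higher, in PGCLC_d3ag3 versus PGCLC_d3 4 were lower and 10 higher, and in PGCLC_d3ag3 versus ESC 9 were lower and 7 higher. In EpiLC versus ESC 70.6% were lower, against 31.8% of all genes, and 5.88% higher, against 35.4%. In PGCLC_d3 versus EpiLC the shares, 47.1% higher and 29.4% lower, were near the 47.3% and 27.6% of all genes. In PGCLC_d3ag3 versus PGCLC_d3 58.8% were higher and 23.5% lower, against 25.7% and 44.8%. In PGCLC_d3ag3 versus ESC 41.2% were higher and 52.9% lower, against 42.5% and 34.8%. Pdha1, the somatic E1 alpha subunit that lets pyruvate enter the cycle, had 148 and 148 TPM in ESC, 15.2 and 19.6 in EpiLC, 63.3 and 61.2 in PGCLC_d3 and 47.1 and 53.4 in PGCLC_d3ag3. It fell by 3.03 on the log2 scale in EpiLC versus ESC (adjusted p = 7.6e-09). Suclg2, of the GTP-forming succinyl-CoA ligase, had 24.5 and 23.7 TPM in ESC, 86.2 and 97.7 in EpiLC, 204 and 205 in PGCLC_d3 and 226 and 229 in PGCLC_d3ag3 (log2 change 1.88 in EpiLC versus ESC, adjusted p = 7.6e-09). Idh3b, a subunit of NAD-dependent isocitrate dehydrogenase, had 33.2 and 36.5 TPM in PGCLC_d3ag3 and 146 and 139 in PGCLC_d3, and fell by 2.00 (adjusted p = 2.6e-08). These genes moved by more than any nuclear member of the complexes with at least 10 TPM in every group.

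Of 23 genes for electron carriers and inner-membrane exchange, 7 were higher and 9 lower in EpiLC versus ESC, 11 and 10 in PGCLC_d3 versus EpiLC, 9 and 4 in PGCLC_d3ag3 versus PGCLC_d3, and 13 and 8 in PGCLC_d3ag3 versus ESC. The shares in EpiLC versus ESC, 30.4% higher and 39.1% lower, were near the 35.4% and 31.8% of all genes. In PGCLC_d3 versus EpiLC 47.8% were higher, against 47.3% of all genes, and 43.5% lower, against 27.6%. In PGCLC_d3ag3 versus PGCLC_d3 39.1% were higher and 17.4% lower, against 25.7% and 44.8%. In PGCLC_d3ag3 versus ESC 56.5% were higher, against 42.5%, and 34.8% lower, the same as for all genes. Ucp2, an inner-membrane carrier of the uncoupling protein family, had 2.77 and 1.80 TPM in ESC, 159 and 171 in EpiLC, 116 and 108 in PGCLC_d3 and 83.7 and 98.4 in PGCLC_d3ag3 (log2 change 5.67 in EpiLC versus ESC, adjusted p = 5.5e-10). Etfb, which passes electrons from fatty acid oxidation to the chain, had 158 and 158 TPM in ESC, 65.4 and 69.1 in EpiLC, 75.0 and 85.1 in PGCLC_d3 and 92.1 and 87.3 in PGCLC_d3ag3. Of 31 assembly factors of complexes II to V, 8 were higher and 11 lower in EpiLC versus ESC. The counts were 10 and 11 in PGCLC_d3 versus EpiLC, and 12 and 10 in PGCLC_d3ag3 versus ESC. In EpiLC versus ESC these are 25.8% and 35.5%, against 35.4% and 31.8% of all genes. In PGCLC_d3 versus EpiLC they are 32.3% and 35.5%, against 47.3% and 27.6%. The shares in PGCLC_d3ag3 versus ESC, 38.7% and 32.3%, were near the 42.5% and 34.8% of all genes. Uqcc2, an assembly factor of complex III, had 189.8 and 154 TPM in PGCLC_d3ag3 and 66.6 and 73.9 in PGCLC_d3 (log2 change 1.27, adjusted p = 2.7e-06).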
